A study of Homo sapiens with 12 samples.

Results

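Aminoacyl-tRNA synthetases join each amino acid to its transfer RNA, the step that supplies protein synthesis with charged tRNA. Human cells keep one set of these enzymes for cytosolic ribosomes, with gene names ending in 1 or without a compartment number, and a nuclear-encoded set for mitochondrial ribosomes, most of whose names end in 2. A list of 34 synthetase genes, 19 cytosolic and 15 mitochondrial, was matched by current symbol and gene number to the platform's probe annotation, and 31 of the 34 had a probe set that named no other gene. These 31 genes, 17 cytosolic and 14 mitochondrial, are described here among 19775 genes measured. The cytosolic MARS1 and QARS1 and the mitochondrial TARS2 were matched only by probe sets that also name a microRNA, so they have no value here. For 18 of the 31 genes more than 1 probe set was found, and the brightest on average stood for the gene.

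The arrays measured RNA of FG and L3.6pl, a pair of human pancreatic carcinoma lines that, by the series title, do not share the same metastatic potential. Both lines were grown from frozen stock, typically for 9 days, in serum-containing DMEM supplemented with vitamins and non-essential amino acids, and the medium was replaced every other day. The hypoxia groups spent their last 24 h at 1% oxygen, the normoxia groups were left untreated, and each of the 4 groups had 3 arrays numbered as replicates 1 to 3. Nothing states that the replicates came from separate cultures, so p-values measure only the spread between these arrays, which may be technical. The labels state no introduced change of a gene, and everything compared is expression of established lines as they were grown. In RNA of a whole culture, less transcript per cell and fewer cells with the transcript cannot be told apart.

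Cytosolic synthetases are known targets of the amino acid response, in which uncharged tRNA activates the kinase GCN2, phosphorylated eIF2 favours translation of the transcription factor ATF4, and ATF4 raises genes of amino acid synthesis, amino acid transport and tRNA charging. The mitochondrial enzymes charge the tRNAs that serve the few proteins encoded by mitochondrial DNA, all of them parts of oxidative phosphorylation or its assembly. Several cytosolic members sit together in the multisynthetase complex, which holds EPRS1, IARS1, KARS1, LARS1, MARS1, QARS1 and RARS1 on the scaffold proteins AIMP1, AIMP2 and EEF1E1. GARS1 and KARS1 each encode both the cytosolic and the mitochondrial enzyme.

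Promoter windows of 300 bases, most of them before the annotated start and the last 50 after it (RefSeq, GRCh38.p14), were found for 16 of the 19 cytosolic and 13 of the 15 mitochondrial genes. No entry was found for LARS1, VARS1, YARS1, AARS2 and VARS2. The element TGATGNAA, which C/EBP and ATF proteins including ATF4 can bind as a dimer, was searched on both strands. It was found in 6 of the 16 cytosolic promoters, 1 of the 13 mitochondrial promoters (YARS2) and 3.67% of all 27305 promoters. The 6 cytosolic sites are shown because these genes include several that stood high together in one pair of arrays described below. Each is written along the gene's strand, with the element in capitals, and TTGCATCA is the element TGATGCAA read on the opposite strand:
AARS1, chr16:70289676-70289703, minus strand: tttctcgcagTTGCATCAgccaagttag
CARS1, chr11:3057408-3057435, minus strand: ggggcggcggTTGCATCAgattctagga
IARS1, chr9:92293693-92293720, minus strand: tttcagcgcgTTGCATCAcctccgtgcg
MARS1, chr12:57488054-57488081, plus strand: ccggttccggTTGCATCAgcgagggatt
NARS1, chr18:57621805-57621832, minus strand: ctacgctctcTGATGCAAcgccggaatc
TARS1, chr5:33440957-33440984, plus strand: cgcctttcgaTTGCATCAgctggtccag

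All 6 cytosolic sites had the same 8 letters on one strand or the other. Relative to the annotated start, the first base of the element lay at -187 in AARS1, -13 in IARS1, -4 in MARS1, -2 in CARS1, 2 in TARS1 and 14 in NARS1. The E-box CACGTG, a palindrome bound by MYC and related factors, was found in 3 mitochondrial promoters (MARS2, CARS2 and EARS2), in 1 cytosolic promoter (IARS1) and in 7.43% of all promoters. These 4 sites are shown because all 4 genes were lower in FG hypoxia, as given below, although NARS1 and NARS2, which were lower too, have no CACGTG in their windows:
MARS2, chr2:197705347-197705374, plus strand: tgcgcctctcaCACGTGctgtcagaacg
CARS2, chr13:110706502-110706529, minus strand: gctgggatgcaCACGTGcttcgctaaca
EARS2, chr16:23557349-23557376, minus strand: agggagaagccCACGTGtgctattccat
IARS1, chr9:92293867-92293894, minus strand: ggttcgttttcCACGTGgaggcgcaaaa

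The shorter ACGTG, the core of the element bound by the hypoxia-inducible factors, overlaps every CACGTG. It was found in 3 of the 16 cytosolic promoters (EPRS1, IARS1, WARS1), in 5 of the 13 mitochondrial promoters (TARS2, MARS2, NARS2, CARS2, EARS2) and in 21.6% of all promoters. An element of the mitochondrial biogenesis factor NRF1, GCGC and TGCGC with any 1 base between them, was found in SARS1, FARSB and TARS1, in IARS2 and MARS2, and in 6.28% of all promoters. A match describes letters in these windows and is not a measured binding site.

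The histidyl enzymes are encoded head to head. The region between them is shown because, with all arrays, HARS2 was called in some comparisons and HARS1 in none. A difference between the 2 genes was not tested. The annotated starts of HARS1, on the minus strand, and HARS2, on the plus strand, enclose 84 bases with a GC content of 59.5% and 9 CpG dinucleotides, which are in capitals on the plus strand:
HARS1 to HARS2, chr5:140691371-140691454: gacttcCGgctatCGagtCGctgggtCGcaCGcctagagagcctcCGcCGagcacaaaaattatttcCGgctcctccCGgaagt

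The labels were checked on genes outside the synthetases. ADM, EGLN3, NDRG1 and SLC2A1, well-known targets of the hypoxia-inducible factors, were higher in all 6 hypoxia arrays than in any normoxia array; ADM, for example, ran from 11.1 to 12.5 in hypoxia and from 6.65 to 8.32 in normoxia on the log2 intensity scale. The epithelial marker KRT18 ran from 12.6 to 13.6 in all arrays. Of 10 stromal and blood markers, 7 or 8 had a group mean below 7. Their summed linear intensity, to which the brightest markers give most, ran from 2483 to 4793 in FG and from 820 to 1679 in L3.6pl. COL3A1 ran from 9.99 to 11.9 in FG against 5.46 to 5.95 in L3.6pl. LUM went the other way, from 2.42 to 2.70 in FG against 2.90 to 6.29 in L3.6pl. The ranges of the remaining markers overlapped between the lines. The part of these markers in the differences between the lines was not tested. Replicate 1 of FG normoxia, replicate 1 of L3.6pl normoxia and replicate 3 of L3.6pl hypoxia are called the arrays that stood apart, a set chosen with earlier results of these data known and not by a cutoff, and results are given with and without these 3 arrays where that changes them. In them 21.6%, 12.6% and 22.4% of genes lay more than 0.5 (log2) from the mean of the other arrays of the group. FG normoxia replicate 3, with 13.9%, is not in the set, and the other 8 arrays had 2.37% to 10.1%.

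**Figure D1:**
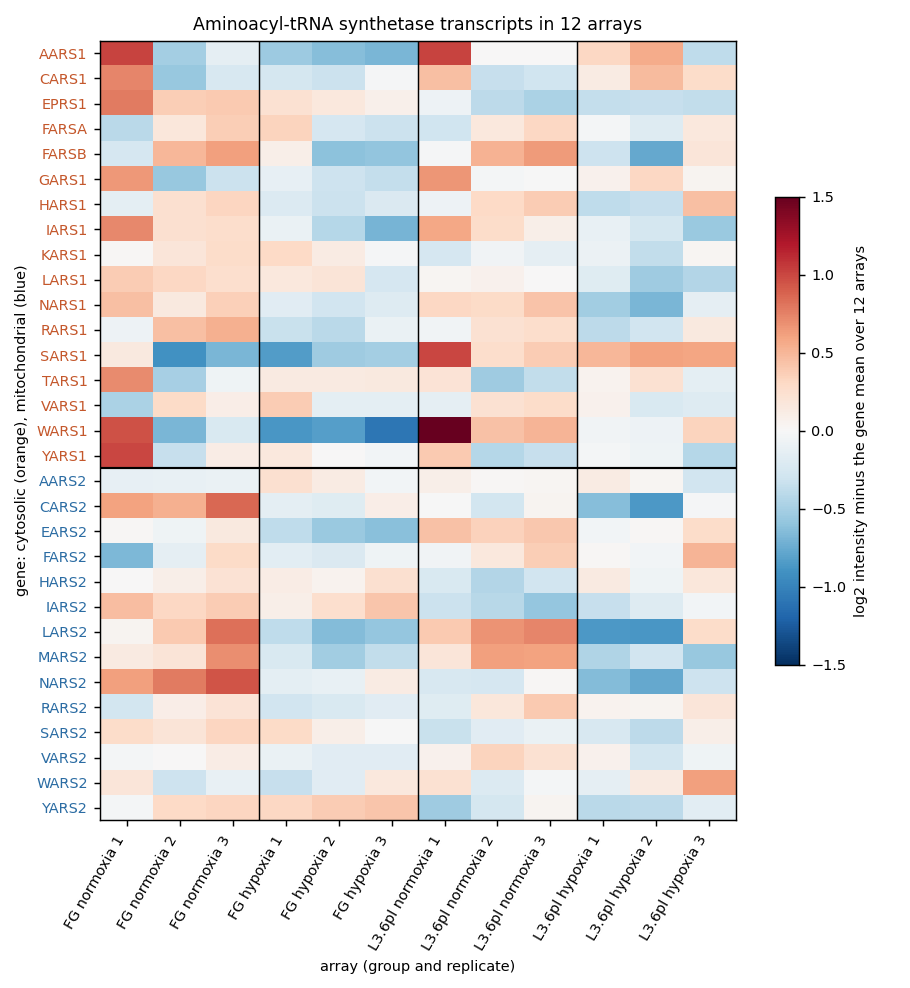
Log2 intensity of 31 aminoacyl-tRNA synthetase genes (rows) in 12 arrays (columns), each gene centred on its mean over the arrays; colours run from -1.5 (blue) to 1.5 (red), and the black lines separate the 4 groups and the 17 cytosolic from the 14 mitochondrial genes. WARS1, AARS1, CARS1, GARS1 and YARS1 are red in replicate 1 of both normoxia groups, and LARS2, MARS2 and NARS2 are darker blue in most hypoxia arrays than in normoxia arrays of the same line.

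The first comparison asked how 24 h of hypoxia changed the synthetase transcripts of FG cells. With 1 probe set for each gene, none of the 31 rose and 6 fell: IARS1 and NARS1 of the cytosolic set and CARS2, EARS2, MARS2 and NARS2 of the mitochondrial set, by 0.54 to 0.83 on the log2 scale, or 1.45- to 1.78-fold. A gene is called changed at a Benjamini-Hochberg adjusted p below 0.05 in the limma model over all genes. The 6 genes are 19.4% of the 31, where 6.47% of all genes were called lower and 4.24% higher. The median log2 fold change was -0.29 over the 17 cytosolic genes and -0.16 over the 14 mitochondrial genes, against -0.03 over all genes. The absence of increases depends on the probe set: tested singly, 1 of 2 TARS1 probe sets (1.60 ± 0.37, adjusted p = 0.0194), 1 of 4 CARS1 probe sets (1.04 ± 0.29, adjusted p = 0.0407) and 1 of 3 WARS2 probe sets (0.51 ± 0.09, adjusted p = 0.0059) rose, while those used for these genes were not called.

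NARS2 and EARS2 gave the steadiest decreases. NARS2, the mitochondrial asparaginyl enzyme, was at log2 intensities of 9.53, 9.69 and 9.86 in the 3 FG normoxia arrays and at 8.77, 8.80 and 9.04 in the 3 hypoxia arrays. All hypoxia arrays lay below all normoxia arrays, and the log2 fold change was -0.83 ± 0.14 (SE, adjusted p = 0.00485). EARS2, the mitochondrial glutamyl enzyme, was at 8.41, 8.33 and 8.55 in normoxia and at 8.02, 7.83 and 7.77 in hypoxia, again without overlap (-0.55 ± 0.11, adjusted p = 0.00911). Both were called in all 12 fits that left out 1 array. Of the 4 EARS2 probe sets 3 had the same sign.

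MARS2 charges the mitochondrial methionine tRNA, which in mitochondria also starts translation. It was at 6.42, 6.48 and 6.98 in FG normoxia and at 6.06, 5.76 and 5.91 in hypoxia, without overlap (-0.72 ± 0.17, adjusted p = 0.0228). MARS2 has only 1 probe set and is dim: the array medians over all genes ran from 6.16 to 6.37. Its hypoxia values lay below these medians in both lines, and whether they stand above background is unknown. CARS2, the mitochondrial cysteinyl enzyme, which is also known to make cysteine persulfides, was at 8.62, 8.55 and 8.88 in normoxia and at 7.88, 7.84 and 8.12 in hypoxia (-0.74 ± 0.20, adjusted p = 0.0363). Its 5 probe sets differed, with log2 fold changes from -0.74 to 0.04, and their mean fell by 0.22 without reaching the threshold (adjusted p = 0.0858). The CARS2 value therefore rests on 1 of its probe sets.

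IARS1, the cytosolic isoleucyl enzyme of the multisynthetase complex, was at 11.99, 11.50 and 11.53 in FG normoxia and at 11.16, 10.84 and 10.57 in hypoxia (-0.82 ± 0.20, adjusted p = 0.0238). NARS1, the cytosolic asparaginyl enzyme, was at 10.97, 10.66 and 10.88 in normoxia and at 10.35, 10.23 and 10.33 in hypoxia (-0.54 ± 0.14, adjusted p = 0.0322). Neither gene's groups overlapped. Replicate 1 was the highest normoxia array for both, and without it the adjusted p was 0.0638 for IARS1, 0.0857 for NARS1 and 0.0573 for CARS2, all above the threshold. RARS1, the arginyl enzyme, moved the other way: replicate 1 was its lowest normoxia array (10.82 against 11.35 and 11.43), and without it its decrease of 0.77 was called (adjusted p = 0.0202). MARS2 and IARS1 were called in 9, and NARS1 and CARS2 in 6, of the 12 fits that left out 1 array. The count of 6 fell to 2 when FG hypoxia replicate 2 was left out, and to 3 when either FG hypoxia replicate 3 or FG normoxia replicate 3 was. The share of all genes called, 10.7% with all arrays, was then 5.20%, 9.18% and 7.68%.

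Among the other complex members in FG, EPRS1, the fused glutamyl and prolyl enzyme, LARS1, the leucyl enzyme, and KARS1, the lysyl enzyme, were not called. KARS1 was at 12.08, 12.23 and 12.33 in normoxia and at 12.36, 12.18 and 12.03 in hypoxia, and its groups overlapped (-0.02 ± 0.13, adjusted p = 0.948). GARS1, the glycyl enzyme, was at 11.22, 10.00 and 10.24 in normoxia and at 10.44, 10.26 and 10.21 in hypoxia (-0.18 ± 0.28, adjusted p = 0.785). The normoxia arrays of GARS1 spanned more than 1 log2 unit, from a high replicate 1.

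WARS1, the tryptophanyl enzyme, a transcript also known to be induced by interferon gamma, was at 10.26, 8.62 and 9.07 in FG normoxia and at 8.44, 8.48 and 8.22 in hypoxia. All hypoxia arrays lay below all normoxia arrays, but the decrease of 0.94 ± 0.39 was not called (adjusted p = 0.176), and without normoxia replicate 1 the adjusted p was 0.426. AARS1, the alanyl enzyme, had the same form, with 10.87, 9.34 and 9.72 in normoxia and 9.31, 9.22 and 9.17 in hypoxia (-0.75 ± 0.39, adjusted p = 0.295). FARSB, a subunit of the phenylalanyl enzyme, had a log2 fold change of -0.65 ± 0.31 (adjusted p = 0.236), while that of its partner FARSA was -0.12 ± 0.24. All 3 FARSB probe sets were negative in both lines, and one of those not used was called in FG (-0.47 ± 0.13, adjusted p = 0.0379) and in L3.6pl (-0.51 ± 0.13, adjusted p = 0.0418). Of the 4 LARS1 probe sets, 1 that was not used was likewise called in FG (-0.71 ± 0.20, adjusted p = 0.0463) and in L3.6pl (-0.78 ± 0.20, adjusted p = 0.0484). CARS1, HARS1, SARS1, TARS1, VARS1 and YARS1 of the cytosolic set were also not called, with log2 fold changes from -0.38 for HARS1 to 0.09 for TARS1. Other probe sets of these genes reached higher values, up to 1.60 for TARS1 and 1.04 for CARS1, both called, and 1.13 for SARS1 and 0.64 for YARS1, not called.

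In the mitochondrial set AARS2, FARS2, HARS2, IARS2, LARS2, RARS2, SARS2, VARS2, WARS2 and YARS2 were not called in FG. LARS2, the mitochondrial leucyl enzyme, had the lowest log2 fold change of all 31 genes and is given because it lay close to the threshold. It was at 7.61, 7.97 and 8.40 in normoxia and at 7.19, 6.92 and 6.99 in hypoxia, without overlap (-0.96 ± 0.29, adjusted p = 0.062). Both LARS2 probe sets were negative, and without normoxia replicate 1 it was called (adjusted p = 0.0419).

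The same comparison in L3.6pl cells gave 1 gene that rose and 2 that fell. NARS1 and MARS2 fell, as in FG, and HARS2, the mitochondrial histidyl enzyme, rose. In this line 2.97% of all genes were called lower and 3.89% higher. The median log2 fold change was -0.18 over the cytosolic and -0.08 over the mitochondrial genes, against -0.02 over all genes. Of the 31 genes 20 had a negative value in both lines. The share of all genes negative in both lines is not given here, so this count cannot be set against it.

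NARS1 was at 10.83, 10.81 and 10.95 in L3.6pl normoxia and at 10.00, 9.83 and 10.38 in hypoxia (-0.79 ± 0.14, adjusted p = 0.00756), and it was called in all 12 fits that left out 1 array. MARS2 was at 6.47, 6.90 and 6.89 in normoxia and at 5.84, 6.0 and 5.72 in hypoxia (-0.90 ± 0.17, adjusted p = 0.0111), called in 11 of the 12. In both genes and both lines every hypoxia array lay below every normoxia array. HARS2 was at 8.78, 8.56 and 8.72 in normoxia and at 9.14, 8.94 and 9.18 in hypoxia (0.40 ± 0.10, adjusted p = 0.0455). The groups did not overlap, but HARS2 was called in only 1 of the 12 fits that left out 1 array, with adjusted p values from 0.0407 to 0.183.

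Its head-to-head neighbour HARS1, the cytosolic histidyl enzyme, was at 9.27, 9.65 and 9.73 in L3.6pl normoxia and at 8.97, 9.00 and 9.81 in hypoxia (-0.29 ± 0.22, adjusted p = 0.525). In FG, HARS1 was at 9.20, 9.59 and 9.67 in normoxia and at 9.15, 9.03 and 9.14 in hypoxia (-0.38 ± 0.22, adjusted p = 0.343), and HARS2 was at 9.01, 9.09 and 9.22 and at 9.12, 9.05 and 9.24 (0.03 ± 0.10, adjusted p = 0.92). The signs of the 2 genes were opposite in both lines, but the HARS2 value in FG was smaller than its standard error. Only the HARS2 increase in L3.6pl passed the threshold, a call that most fits without 1 array lost, as given above. The unequal change of the 2 genes was itself not tested.

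LARS2 was at 7.96, 8.24 and 8.30 in L3.6pl normoxia and at 6.70, 6.70 and 7.85 in hypoxia. Replicate 3 lay more than 1 log2 unit above the other hypoxia arrays, and the decrease of 1.09 ± 0.29 stood just above the threshold (adjusted p = 0.0504). Without that array it was called (adjusted p = 0.00168), and its second probe set was called with all arrays (-0.76 ± 0.18, adjusted p = 0.0326). The same array was the highest of its group for HARS1, NARS1, CARS2, EARS2 and NARS2. Without it the count of called members went from 3 to 6, and without L3.6pl normoxia replicate 2 it was 1. The share of all genes called was 6.86% with all arrays, 12.3% without the first and 2.57% without the second.

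WARS1 was at 10.90, 9.75 and 9.82 in L3.6pl normoxia and at 9.25, 9.22 and 9.63 in hypoxia (-0.79 ± 0.39, adjusted p = 0.29). GARS1 was at 11.23, 10.54 and 10.57 in normoxia and at 10.64, 10.88 and 10.61 in hypoxia, with overlap (-0.07 ± 0.28). KARS1 was at 11.81, 12.00 and 11.92 in normoxia and at 11.96, 11.68 and 12.08 in hypoxia, with a difference that rounded to 0.00 (SE 0.13). IARS1 and LARS1 had log2 fold changes of -0.62 ± 0.20 and -0.42 ± 0.13, with adjusted p of 0.0894 and 0.0877.

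With the 3 arrays that stood apart left out, more genes of all kinds were called, and more members with them. In FG 11 members fell and none rose: FARSB, HARS1, IARS1, NARS1 and RARS1, and CARS2, EARS2, LARS2, MARS2, NARS2 and RARS2; 12.5% of all genes were then called lower and 7.06% higher. In L3.6pl 9 members fell, namely FARSB, HARS1, NARS1, RARS1, WARS1, CARS2, LARS2, MARS2 and NARS2, and CARS1 (0.61, adjusted p = 0.0292) and TARS1 (0.59, adjusted p = 0.0211) rose; 13.2% of all genes were then called lower and 7.89% higher. LARS2 then fell by 1.15 in FG and by 1.57 in L3.6pl. HARS2 in L3.6pl then stood at an adjusted p of 0.0514.

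**Figure D2:**
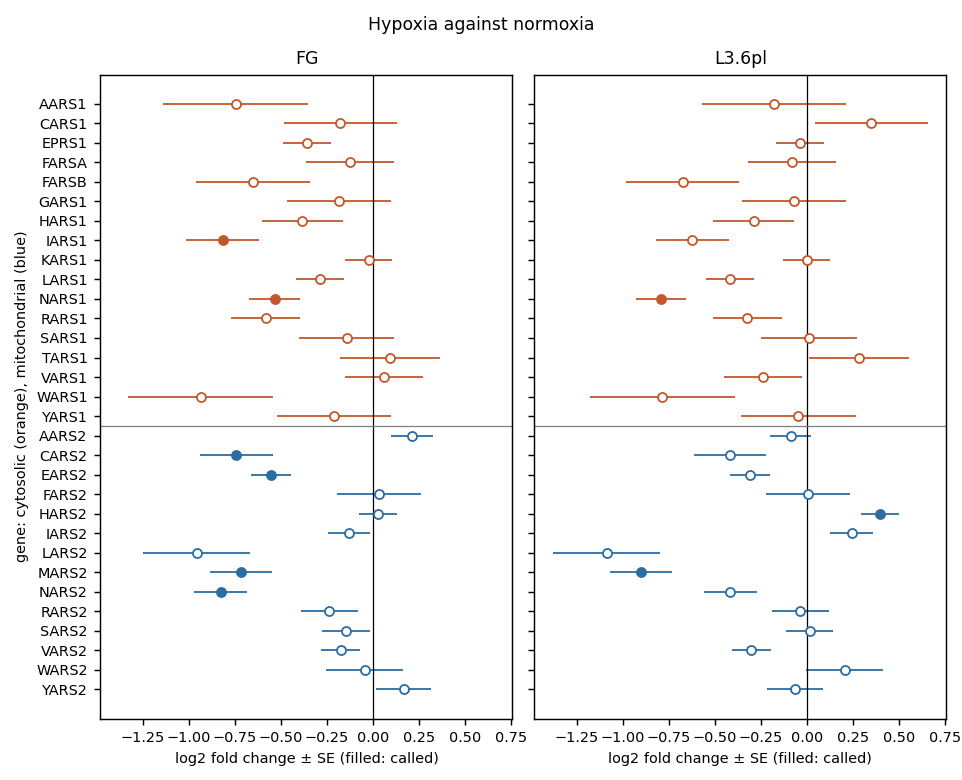
Log2 fold change of hypoxia against normoxia ± standard error in FG (left) and L3.6pl (right) for 17 cytosolic (orange) and 14 mitochondrial (blue) synthetase genes, with 3 arrays in each group; filled points have an adjusted p below 0.05. In FG 6 genes are filled, all below 0, and in L3.6pl 3 are filled, NARS1 and MARS2 below 0 and HARS2 above.

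**Figure D3:**
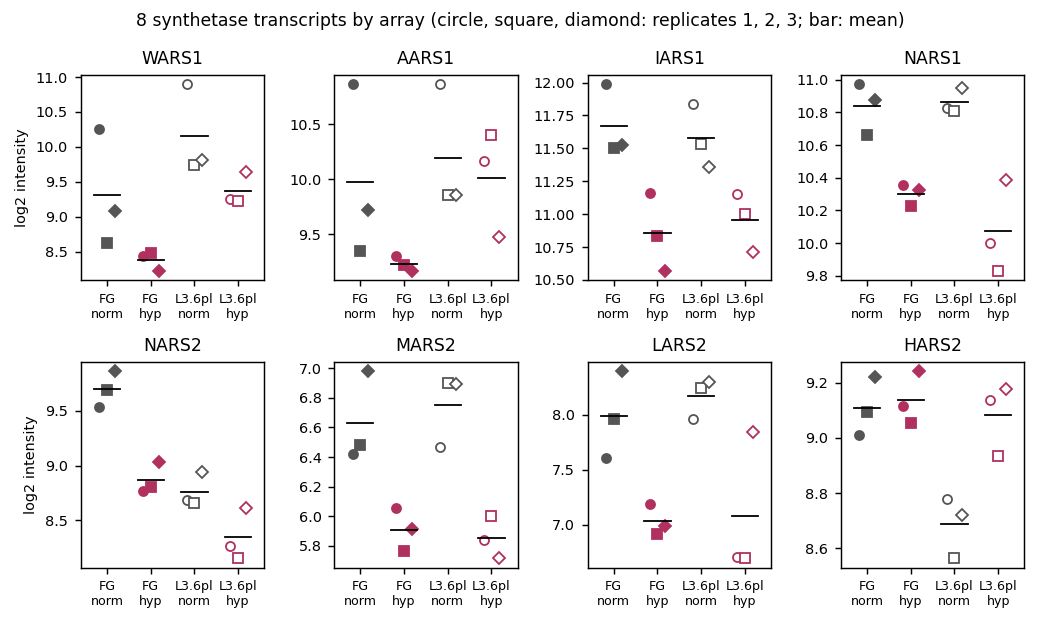
Log2 intensity of 8 synthetase genes in each array, by line and condition, with filled points for FG, open points for L3.6pl, grey for normoxia and red for hypoxia; circles, squares and diamonds are replicates 1, 2 and 3 and the bar is the group mean. WARS1 and AARS1 have a high circle in both normoxia groups, and NARS1, NARS2 and MARS2 have hypoxia arrays below all normoxia arrays of their line.

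No member was called for a difference between the lines' hypoxia effects. The interaction, the log2 fold change in L3.6pl minus that in FG, had 0 of 31 members at an adjusted p below 0.05 in limma, 2 members (HARS2 and IARS2) at an unadjusted p below 0.05, and 0.0253% of all genes called. IARS2, the mitochondrial isoleucyl enzyme, had the interaction value 0.38 ± 0.17 (adjusted p = 0.676) and HARS2 0.37 ± 0.15 (adjusted p = 0.604). The calls of NARS2, EARS2, CARS2 and IARS1 in FG alone and of HARS2 in L3.6pl alone are therefore not shown to differ between the lines. With the replicate number as a block within each condition 3.55% of all genes and again 0 members were called.

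In replicate 1 of both normoxia groups a subset of the cytosolic genes stood high. Each array was set against the mean of replicates 2 and 3 of its group, and a distance of 0.5 on the log2 scale, chosen after the values were seen, marks a gene as apart; these values are a description without a test. In FG and in L3.6pl the same 7 of 17 cytosolic genes lay more than 0.5 above: AARS1, CARS1, GARS1, SARS1, TARS1, WARS1 and YARS1. Another 4 cytosolic genes in FG and 2 in L3.6pl lay more than 0.5 below. None of the 14 mitochondrial genes lay this far above in either line, and 2 in FG lay this far below. Of all genes, 10.8% lay this far above in FG and 6.31% in L3.6pl, and 21.6% and 12.6% lay this far away in either direction.

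WARS1 lay 1.41 above in FG and 1.12 in L3.6pl, AARS1 1.34 and 1.01, CARS1 1.14 and 0.77, YARS1, the tyrosyl enzyme, 1.13 and 0.78, and GARS1 1.09 and 0.67. TARS1, the threonyl enzyme, lay 0.99 and 0.65 above and SARS1, the seryl enzyme, 0.94 and 0.68. Cytosolic genes were not all high in these arrays. FARSA lay 0.67 below in FG and 0.53 below in L3.6pl, and FARSB 0.81 and 0.60 below. RARS1 and VARS1 lay more than 0.5 below in FG alone.

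None of the 5 measured complex members was among the 7 high genes. The closest were IARS1 (0.48 in FG, 0.39 in L3.6pl) and EPRS1 (0.40, 0.36), and KARS1, LARS1 and RARS1 lay between -0.57 and 0.10. The mitochondrial genes ran from -0.75 for FARS2 to 0.39 for WARS2 in FG and from -0.47 to 0.34 in L3.6pl. Of the 7 high genes, AARS1, CARS1 and TARS1 have a TGATGNAA site in the promoter window shown above, and GARS1, SARS1 and WARS1 have none there. IARS1 and NARS1, which also have a site, were below the distance of 0.5 in both lines.

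The genes of the amino acid response stood high in the same pair of arrays. Of ATF4 and 14 of its targets, 12 lay more than 0.5 above in FG and 11 in L3.6pl, 11 of them in both. Asparagine synthetase ASNS was at 11.27 in FG normoxia replicate 1 against 9.34 and 9.69, and at 10.86 in L3.6pl normoxia replicate 1 against 9.08 and 9.40. ATF4 lay 1.08 and 0.90 above and the pseudokinase TRIB3 2.79 and 1.56. Of 17 genes of amino acid synthesis and transport, 14 in FG and 11 in L3.6pl lay this far above, 10 of them in both. All 12 proliferation genes in FG and 9 of 12 in L3.6pl lay more than 0.5 below, with medians of -2.24 and -0.77. The part of culture density, medium age or growth rate in this pattern was not tested, and the labels give no such value for single arrays.

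**Figure D4:**
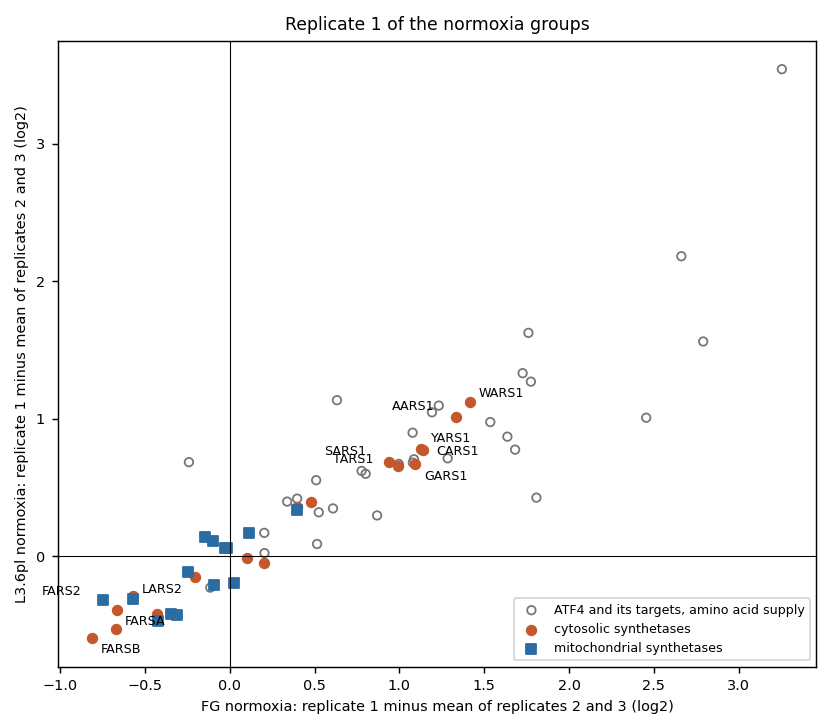
Distance of replicate 1 from the mean of replicates 2 and 3 (log2) in FG normoxia (horizontal) and in L3.6pl normoxia (vertical) for cytosolic synthetases (orange circles), mitochondrial synthetases (blue squares) and genes of ATF4, its targets and amino acid supply (open circles). The 7 high cytosolic genes lie at 0.94 to 1.41 on the horizontal and 0.65 to 1.12 on the vertical axis, and no mitochondrial gene lies above 0.39 on either.

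In hypoxia 4 of the 15 genes of ATF4 and its targets rose in FG: the phosphatase subunit PPP1R15A, which reverses eIF2 phosphorylation (2.24 ± 0.44, adjusted p = 0.00881), the lipoprotein receptor VLDLR (1.84 ± 0.33, adjusted p = 0.00541), the transcription factor CEBPG (1.21 ± 0.22, adjusted p = 0.00661) and the mTORC1 inhibitor DDIT4 (1.02 ± 0.18, adjusted p = 0.00477). ATF5 fell (-0.71 ± 0.19, adjusted p = 0.0393). In L3.6pl PPP1R15A (1.72 ± 0.44) and VLDLR (2.06 ± 0.33) rose and none fell. The median over the 15 was 0.56 in FG and 0.54 in L3.6pl. Without FG normoxia replicate 1, in which the list was high, 6 rose and none fell in FG (median 1.13). Of all 19775 genes 856 were then called higher and 1218 lower. Without the 3 arrays that stood apart 10 rose in each line, with medians of 1.13 and 0.92, and ATF5 fell in FG. In that fit 7.06% of all genes in FG and 7.89% in L3.6pl were called higher, and 12.5% and 13.2% lower. ATF4 itself was at 0.63 ± 0.31 in FG and 0.54 ± 0.31 in L3.6pl, neither called, and without the 3 arrays that stood apart it rose by 0.99 and 0.96 (adjusted p = 0.000326 and 0.000625). VLDLR and DDIT4 are also known targets of the hypoxia-inducible factors. The C/EBP factor CEBPB was not called in either line (0.54 and 0.20).

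Of the 17 genes of amino acid synthesis and transport, SLC3A2, the heavy chain of several amino acid exchangers, rose in FG (0.75 ± 0.17, adjusted p = 0.0167), and the other 16 were not called. The FG median of the list was -0.23 with all arrays and 0.16 without normoxia replicate 1, with SLC3A2 still the only call. In L3.6pl the serine synthesis enzymes went in opposite directions: PSPH rose (1.70 ± 0.22, adjusted p = 0.00156) and PSAT1 fell (-1.37 ± 0.37, adjusted p = 0.0492). With the mean of its probe sets PSPH was at 0.45 and not called (adjusted p = 0.0676). MTHFD2 and SLC38A2 were not called in either line. Without the 3 arrays that stood apart 4 of the 17 rose and 1 fell in FG, and 3 rose and 3 fell in L3.6pl. Of all genes 7.06% were then called higher and 12.5% lower in FG, and 7.89% and 13.2% in L3.6pl. Of 12 genes of eIF2, its exchange factor and its kinases, the kinase EIF2AK3 (PERK) fell in FG (-0.86 ± 0.19, adjusted p = 0.0154) and none was called in L3.6pl, EIF2S2 and EIF2S3 among them.

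Other genes of tRNA charging gave few calls. PARS2, the mitochondrial prolyl enzyme, fell in FG (-0.76 ± 0.22, adjusted p = 0.0474) and TARS3 was not called. DTD2, which removes wrongly attached amino acids from tRNA, was the only one of 8 measured genes of editing, amidation and formylation to be called. It was at 7.75, 7.77 and 8.08 in FG normoxia and at 6.89, 6.25 and 6.69 in hypoxia (-1.25 ± 0.17, adjusted p = 0.00156). In L3.6pl it was at 7.31, 7.45 and 7.64 in normoxia and at 6.47, 6.25 and 6.62 in hypoxia (-1.02 ± 0.17, adjusted p = 0.00655). DTD1 and QRSL1 were not called. AIMP1, the one measured scaffold, was at 0.18 ± 0.19 and 0.04 ± 0.19.

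Of 9 measured mitochondrial translation factors, the elongation factor GFM1 fell in L3.6pl (-1.05 ± 0.21, adjusted p = 0.0143); in FG it was at -0.66 ± 0.21 (adjusted p = 0.0732). TUFM and MTIF2 were not called. The 3 measured cytosolic elongation factors, EEF1A1 and EEF1D among them, had log2 fold changes from -0.04 to 0.18 and were not called. Of 12 proliferation genes MCM2 (-1.55 ± 0.41) and MCM3 (-1.65 ± 0.40) fell in L3.6pl, none was called in FG, and the medians were -0.84 and -0.10; TOP2A and RRM2 were not called. The FG value rests on normoxia replicate 1, where these genes were low: without it the median was -0.84 and MCM3 and PCNA fell. Without the 3 arrays that stood apart 6 of the 12 fell in FG, RRM2 among them, and 9 in L3.6pl (median -1.36). Of all genes 12.5% in FG and 13.2% in L3.6pl were then called lower. The part of growth rate in the lower synthetase levels was not tested.

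The comparison of the lines asked which synthetases differ between L3.6pl and FG in the same oxygen. In normoxia 1 member was higher in L3.6pl, SARS1, and 6 were lower: EPRS1 of the cytosolic set and CARS2, HARS2, IARS2, NARS2 and SARS2 of the mitochondrial set. Of all genes 5.16% were called higher and 5.54% lower. In hypoxia SARS1 and EARS2 were higher and EPRS1, IARS2, NARS2 and YARS2 lower, where 10.0% of all genes were called higher and 6.72% lower. These comparisons share no arrays with each other but each shares its arrays with the hypoxia comparisons above. They treat the arrays of both lines as unpaired, although same-numbered arrays deviated together within a condition. Counts from the fit that uses this pairing are given below.

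EPRS1, IARS2 and NARS2 were lower in L3.6pl in both conditions. EPRS1 was at 11.26, 10.85 and 10.87 in FG and at 10.40, 10.08 and 10.00 in L3.6pl normoxia (-0.83 ± 0.13, adjusted p = 0.00236), and at 10.71, 10.63 and 10.56 in FG and 10.13, 10.14 and 10.12 in L3.6pl hypoxia (-0.51 ± 0.13, adjusted p = 0.0224). IARS2 was at 11.41, 11.26 and 11.33 in FG and at 10.62, 10.53 and 10.37 in L3.6pl normoxia (-0.82 ± 0.12, adjusted p = 0.00116), and at 11.03, 11.20 and 11.36 and at 10.60, 10.76 and 10.91 in hypoxia (-0.45 ± 0.12, adjusted p = 0.0239). In all 4 comparisons every L3.6pl array lay below every FG array. All 3 EPRS1 probe sets were negative in both conditions.

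EPRS1 and IARS2 lie on chromosome 1 with the nucleotidase gene BPNT1 between them in gene order. BPNT1 was also lower in L3.6pl (-1.0 ± 0.21, adjusted p = 0.0119 in normoxia; -0.70 ± 0.21, adjusted p = 0.0434 in hypoxia). The next measured genes on either side, SLC30A10 and RAB3GAP2, were not called in either condition, which does not mark an edge. RAB3GAP2 was at -0.09 ± 0.29 in normoxia and at -0.57 ± 0.29 in hypoxia, and SLC30A10 at 0.20 ± 0.10 and -0.03 ± 0.10. Of the 10 nearest measured genes of EPRS1, BPNT1 and IARS2 among them, 7 were negative in normoxia and 8 in hypoxia. Neighbouring genes are given as a description, and DNA copy number was not measured here.

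NARS2 was at 8.68, 8.66 and 8.94 in L3.6pl normoxia and at 8.27, 8.15 and 8.61 in L3.6pl hypoxia. Against FG these are log2 fold changes of -0.93 ± 0.14 (adjusted p = 0.0019) and -0.52 ± 0.14 (adjusted p = 0.0292), with no overlap in either condition. The arrays of L3.6pl normoxia overlapped those of FG hypoxia given above, a pair of groups that was not tested. On chromosome 11 its measured neighbour GAB2, an adaptor of growth factor receptors, was lower in L3.6pl by more (-1.90 ± 0.20 in normoxia, -2.22 ± 0.20 in hypoxia). TENM4, on the other side, was not called. Farther out on that side RAB30 was also lower (-1.43 ± 0.30, adjusted p = 0.0106 in normoxia, and -1.14 ± 0.30, adjusted p = 0.0225 in hypoxia, limma). No other listed neighbour of NARS2 was called in either condition.

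SARS1 was at 11.10, 10.06 and 10.27 in FG and at 11.96, 11.22 and 11.34 in L3.6pl normoxia (1.03 ± 0.26, adjusted p = 0.0275), and at 10.12, 10.43 and 10.45 and at 11.45, 11.56 and 11.55 in hypoxia (1.18 ± 0.26, adjusted p = 0.00982). The groups did not overlap. Its 2 probe sets differed, with values of 1.03 and 0.42 in normoxia and of 1.18 and -0.10 in hypoxia, and the mean of both was not called. Nearby on chromosome 1 TAF13 (1.36 ± 0.15), TMEM167B (1.01 ± 0.12) and WDR47 (0.59 ± 0.13) were higher in L3.6pl normoxia too, and ELAPOR1 was lower (-0.50 ± 0.14).

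EARS2 was at 8.83, 8.74 and 8.80 in L3.6pl normoxia and at 8.36, 8.42 and 8.67 in L3.6pl hypoxia. It was higher than in FG in hypoxia (0.61 ± 0.11, adjusted p = 0.0031) and just short of the threshold in normoxia (0.37 ± 0.11, adjusted p = 0.0578). Its divergent neighbour UBFD1, with 376 bases between the annotated starts, was also higher in hypoxia (0.44 ± 0.10), as were GGA2 (1.04 ± 0.21) and PALB2 (1.71 ± 0.20).

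YARS2, the mitochondrial tyrosyl enzyme, was at 9.43, 9.50 and 9.53 in FG and at 8.71, 8.73 and 8.96 in L3.6pl hypoxia (-0.68 ± 0.15, adjusted p = 0.0101). In normoxia it was at 9.09, 9.42 and 9.44 and at 8.58, 8.86 and 9.16, where the groups overlapped (-0.45 ± 0.15, adjusted p = 0.0891). Its neighbour DNM1L, the mitochondrial fission GTPase, was also lower in hypoxia (-0.89 ± 0.18), while 2 of its other neighbours, AMN1 (0.55 ± 0.17) and CPNE8 (0.84 ± 0.22), were higher in L3.6pl. YARS2 was called in all 12 fits that left out 1 array.

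CARS2 was at 8.02, 7.74 and 8.06 in L3.6pl normoxia and at 7.39, 7.16 and 8.01 in L3.6pl hypoxia, against FG levels given above (-0.75 ± 0.20, adjusted p = 0.0349 and called in 4 of 12 fits without 1 array in normoxia; -0.42 ± 0.20, adjusted p = 0.191 in hypoxia). As in the hypoxia comparison of FG, 1 of its 5 probe sets carried the call, and its neighbours NAXD (-0.53 ± 0.11) and ANKRD10 (-1.38 ± 0.24) were lower too. SARS2, the mitochondrial seryl enzyme, was at 7.90, 7.81 and 7.94 in FG and at 7.28, 7.45 and 7.51 in L3.6pl normoxia (-0.47 ± 0.13, adjusted p = 0.044), called in 4 of the 12. In hypoxia SARS2 was at 7.90, 7.70 and 7.61 and at 7.37, 7.22 and 7.70, with overlap. HARS2 was lower in L3.6pl normoxia (-0.42 ± 0.10, adjusted p = 0.0253), and in hypoxia, where it had risen in L3.6pl, the lines were close (-0.05 ± 0.10).

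The count of 7 in normoxia was 3 when FG normoxia replicate 2 or replicate 3 was left out, and 4 when any one of the 3 L3.6pl normoxia arrays was. The count of 6 in hypoxia was 3 without replicate 2 of either line's hypoxia group. Of all genes 10.7% were called in normoxia with all arrays and 6.34% to 8.53% in these 5 fits; in hypoxia 16.7% were called with all arrays and 10.8% and 13.0% in these fits. WARS1 was called higher in L3.6pl once FG normoxia replicate 1 was left out (1.31, adjusted p = 0.0245 in normoxia; 0.99, adjusted p = 0.0313 in hypoxia). With the replicate number as a block within each condition the counts were 9 in normoxia and 14 in hypoxia, where 23.1% and 30.0% of all genes were called. In normoxia the block added WARS1 (0.84, adjusted p = 0.00464) and YARS2 (adjusted p = 0.00865). In hypoxia it added AARS1, CARS1, GARS1, WARS1, RARS2 and WARS2 as higher in L3.6pl and LARS1 and CARS2 as lower. WARS1 was at 0.99 ± 0.39 in hypoxia without the block (adjusted p = 0.122) and at an adjusted p of 0.00138 with it.

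**Figure D5:**
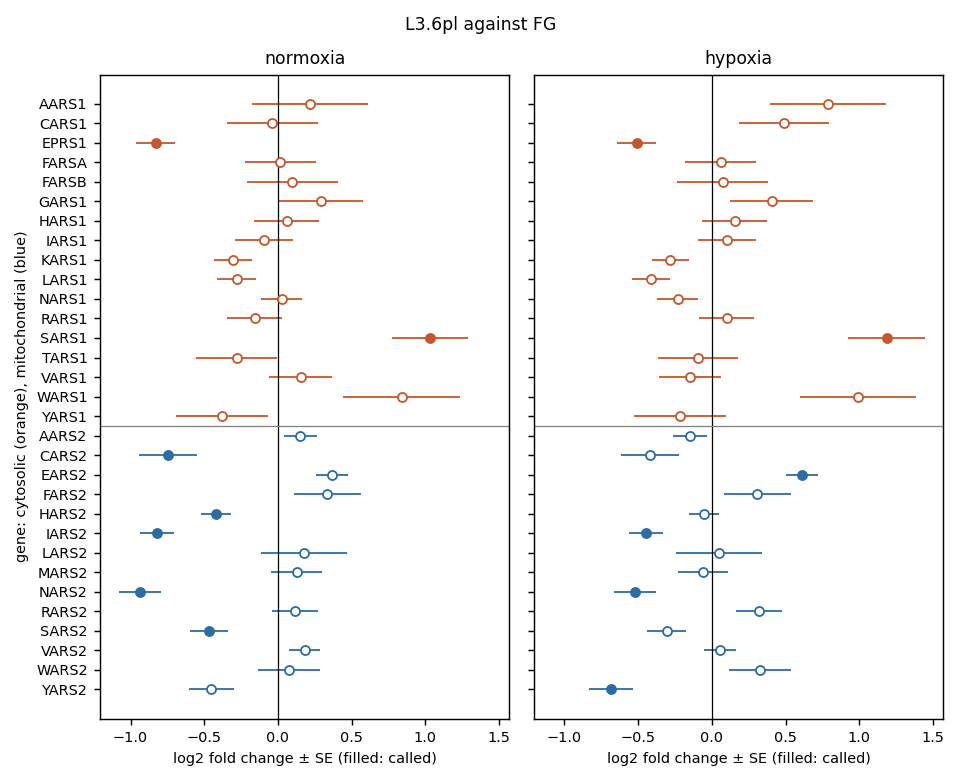
Log2 fold change of L3.6pl against FG ± standard error in normoxia (left) and hypoxia (right) for 17 cytosolic (orange) and 14 mitochondrial (blue) synthetase genes, with 3 arrays in each group; filled points have an adjusted p below 0.05. EPRS1, IARS2 and NARS2 are filled below 0 and SARS1 is filled above 0 in both panels.

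Members were also grouped by enzyme class, since class I and class II synthetases have unrelated catalytic folds; EPRS1 was counted in class I by its glutamyl part. In FG hypoxia 4 of 17 class I genes (CARS2, EARS2, IARS1, MARS2) and 2 of 14 class II genes (NARS1, NARS2) fell, where 6.47% of all genes were called lower, with median log2 fold changes of -0.29 and -0.14. In L3.6pl 1 class I gene, MARS2, and 1 class II gene, NARS1, fell, where 2.97% of all genes were called lower. Both asparaginyl enzymes, which charge the same amino acid in the cytosol and in mitochondria, were negative in both lines. So were both leucyl enzymes, LARS1 and LARS2, and 20 of the 31 members in all, so a shared sign is not particular to the asparaginyl pair. Of the 5 measured complex members 1 fell in FG and none in L3.6pl, with medians of -0.36 and -0.32.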

How the data were processed

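The deposited files hold linear intensities. According to the submitters' processing notes the authors used RMA, a method that corrects background, equalizes the arrays and sums the probes of a set; no version is named there. Array medians ran from 39.1 to 41.4, and no further normalization was applied. Scanner signals and background were not used, so whether a probe set stands above background is unknown, and the number of arrays limits the precision. The log2 of each intensity was taken here. Of the probe sets, the platform annotation gave 41091 exactly 1 gene and 1801 several, symbols were updated through RefSeq's gene table for GRCh38.p14, and the probe set with the highest mean stood for each of 19775 genes. All 12 arrays entered 1 model in limma 3.58.1 (R 4.3.3) with lmFit and eBayes, 1 mean for each group and 5 contrasts, and p-values were adjusted by Benjamini-Hochberg over all genes, with calls below 0.05. The scripts were tested on simulated data. Errors are limma's standard errors with 3 arrays in each group. With 3 arrays a group, the smallest two-sided p of an exact permutation test would be 0.1.

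The members, gene lists and most settings were chosen with earlier results of these data known. Array values are given for up to 5 called members in each direction of each comparison and for WARS1, GARS1, KARS1, HARS1 and HARS2. From each related list up to 4 called genes of each hypoxia comparison and up to 2 uncalled genes of highest mean are named. LARS2, AARS1, DTD2, ASNS, TRIB3 and neighbouring genes were given further values after theirs were seen. Neighbours are the 5 nearest protein-coding measured genes on each side in the gene table.

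Replicate numbers are shared by all groups. Same-numbered arrays of the 2 lines deviated together within a condition (r of 0.73, 0.53 and 0.68 in normoxia, 0.36, 0.44 and 0.46 in hypoxia, across genes), while hypoxia and normoxia of 1 line did not in every pair (from -0.22 to 0.41). The numbers were therefore also taken as pairs for the line comparisons, in a separate fit with the replicate number as a block within each condition. The line calls, errors and adjusted p values given here come from the fit without a block unless another fit is named. Alternatives were a cyclic loess, centring on array medians, a filter on dim genes (log2 intensity of 5 in at least 3 arrays), the mean of all probe sets, each probe set singly, trend and robust moderation, array weights, only the groups compared, a replicate block, an adjusted p below 0.01, and leaving out each array or the 3 that stood apart.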

Additional observations from a re-analysis of the deposited data

How the results depend on the processing

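Leaving out 1 array gave 2 to 8 called members for hypoxia in FG and 1 to 6 for hypoxia in L3.6pl. It gave 3 to 8 for the lines in normoxia and 3 to 8 for the lines in hypoxia. The share of all genes called also moved, from 5.20% to 14.7%, 2.57% to 12.3%, 6.34% to 13.3% and 10.8% to 19.3% in these comparisons. Median log2 fold changes of the cytosolic members then ran from -0.43 to -0.25 for hypoxia in FG, from -0.26 to -0.14 in L3.6pl, from -0.062 to 0.18 for the lines in hypoxia and from 0.036 to 0.33 for the interaction. Those of the mitochondrial members ran from -0.20 to -0.016 for hypoxia in L3.6pl, from -0.019 to 0.11 for the lines in normoxia and from 0.036 to 0.24 for the interaction.

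Array weights gave 12 called members for hypoxia in FG, 13 in L3.6pl, 15 for the lines in normoxia and 10 in hypoxia, and interaction medians of -0.030 (cytosolic) and 0.027 (mitochondrial); of all genes 29.0%, 26.3%, 33.5% and 23.3% were then called. At an adjusted p below 0.01 the counts were 2, 1, 3 and 2, with 4.35%, 2.40%, 5.18% and 8.69% of all genes. Without the 3 arrays that stood apart there were 11 called members for hypoxia in each line and 13 for the lines in hypoxia, with 19.6%, 21.1% and 22.3% of all genes. The medians were then -0.34 (cytosolic) and -0.28 (mitochondrial) for hypoxia in L3.6pl, -0.062 (cytosolic) for the lines in hypoxia, and 0.025 (cytosolic) and -0.0097 (mitochondrial) for the interaction. RRM2, not called in FG hypoxia with all arrays, was then called lower (-0.85). The mean of all probe sets gave an interaction median of -0.023 for the mitochondrial members. A replicate block over all groups gave 9 called members for hypoxia in FG and 6 in L3.6pl, where IARS1, LARS2 and NARS2 were added, and 8 for the lines in each condition, with 15.1%, 10.8%, 14.2% and 21.4% of all genes. The block within condition gave 14 for the lines in hypoxia. The cause of these shifts was not tested. With a cyclic loess IARS1 in FG hypoxia (adjusted p = 0.0705) and EPRS1 between the lines in hypoxia (adjusted p = 0.0602) lost their calls, and with centred arrays IARS1 (adjusted p = 0.0531) and MARS2 (adjusted p = 0.0529) in FG hypoxia did. Trend and robust moderation removed 5 member calls, that of NARS1 in FG hypoxia among them (limma adjusted p = 0.0532), and added 1. Of all genes 9.73%, 6.29%, 9.73% and 15.9% were then called. Fits of only the groups compared removed 7 member calls and added 2, and 8.77%, 4.03%, 10.1% and 14.0% of all genes were then called. The interaction had 0 called members in every alternative run that tested it.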
